A study of Drosophila melanogaster with 4 samples.

Results

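Homeobox genes encode transcription factors that bind DNA through a homeodomain, and the members described here are those that do not act as Hox genes. They were chosen by FlyBase symbol from a list of 58 genes, and 57 of them had a row among the 17409 genes counted in each library. The remaining gene, scro, has a gene ID in the annotation that is not among the rows used here, so no value is given for it. The symbols ftz, zen, zen2 and bcd go against a description as genes outside the Hox clusters, since they lie between lab and Antp on chromosome arm 3R, inside the Antennapedia complex, although they no longer act as Hox genes. Poly(A) RNA came from 2 tissues of adult *Drosophila melanogaster* males of the wild-type strain Oregon-R-modENCODE, aged 4 to 5 days, with no mutation or treatment in either group. The testis group held 2 libraries, from testes cut away just above the seminal vesicle. The seminal vesicle group held 2 libraries, from the sac that stores mature sperm with the adjoining testis terminal epithelium attached. Dissections took place on 2 consecutive days, flies were kept under constant light, and the labels do not give the number of males pooled per library.

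The homeodomain is a small helical fold, 1 helix of which lies in the major groove of DNA and reads short AT-rich sites. Families are told apart by the domains that accompany it, such as LIM zinc fingers, a POU domain, a sine oculis domain or a paired domain, and by relatedness of the homeodomain itself. Many of these proteins were found through their part in dividing the embryo into segments or in setting the identity of appendages, eye, muscle, heart, neurons and glia. In adults they often remain on in the tissues they helped to build, where they hold cell identity.

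Testis libraries held 14088989 and 15528462 reads counted to genes, and those of seminal vesicle 13385256 and 11120405. Levels are CPM, the read count over the TMM-scaled library size in megareads, printed as testis replicates 1 and 2, then seminal vesicle replicates 1 and 2, and a log2 fold change above 0 means higher in seminal vesicle, given ± its standard error. Adjusted p-values are from the edgeR quasi-likelihood test over all 11737 genes that passed the count filter, with Benjamini-Hochberg adjustment and a threshold of 0.05. The 8 germline markers, among them vas, bam and betaTub85D, summed to 6430 and 7293 CPM in testis and to 481 and 963 CPM in seminal vesicle. The 6 muscle markers summed to 174 and 202 CPM in testis and to 3572 and 2702 CPM in seminal vesicle. The seminal vesicle has no marker list here that defines its own epithelium, so that label was not checked against one.

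The 2 tissues carried largely different sets of these genes. In testis 23 of 57 members (40.4%) reached 1 CPM of total gene counts in both libraries, in seminal vesicle 14 (24.6%), and 8 did so in both tissues, namely Lim1, ap, cad, so, Optix, mirr, ct and nub. Over all 17409 genes the same limit was reached by 59.5% in testis, 53.8% in seminal vesicle and 48% in both. Seminal vesicle reads from members were dominated by Lim1, which took 66.8% and 70.3% of them, with so next at 7.17% and 6.33%. Testis reads were spread more widely, with Optix at 25.5% and 25.3%, cad at 20.3% and 19.7% and ap at 9.51% and 9.25%. These shares are of reads and are not corrected for transcript length.

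Of the 33 members that passed the count filter, 20 were higher in testis, 11 were higher in seminal vesicle, and tup and caup did not pass the test. Of all genes tested, 44.5% were called for testis and 42.1% for seminal vesicle, 86.6% in either direction, so a call alone does not set a member apart. With spike-in scaling the split over all genes was 6372 for testis and 3272 for seminal vesicle, and that of the members 21 and 10. The spike-in pools differ between the tissues, so in this scaling the pool cannot be told apart from the tissue. Spike-in reads numbered 4593 and 6063 in testis and 8022 and 6034 in seminal vesicle. These limits hold wherever spike-in scaling is given below. Against a change of over 2-fold (edgeR glmTreat), 20 members were higher in testis and 10 in seminal vesicle, beside 36.7% and 33.5% of all genes. The median log2 fold change of the tested members was -2.45, and that of all tested genes was -0.11. Members are mostly low genes, and one that passed the filter only through the tissue where it is high had to differ, so these counts and the median are descriptions. In these bulk samples fewer cells of a type and less RNA per cell cannot be told apart.

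**Figure D1:**
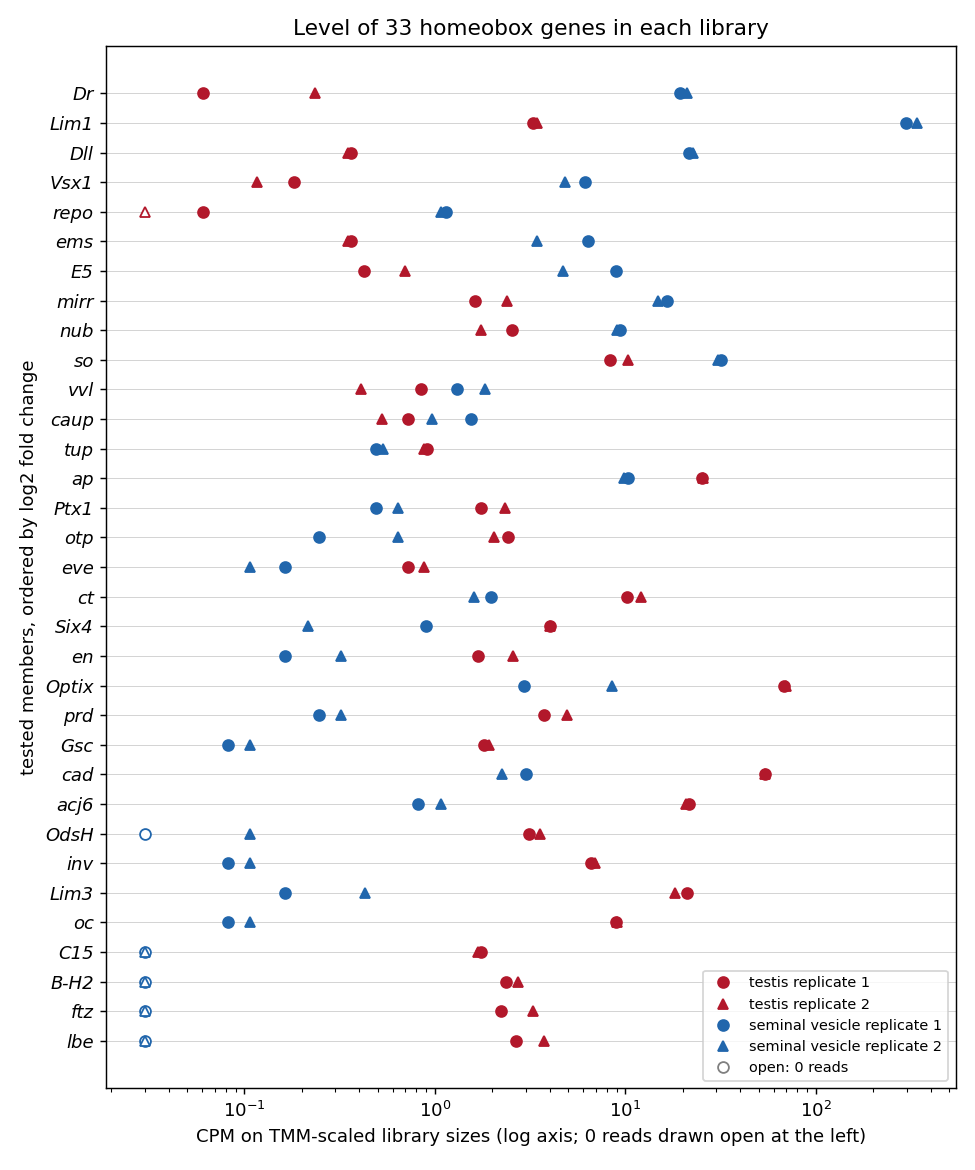
Level of each of the 33 tested members in each library, in CPM on a log axis, ordered by log2 fold change; circles are replicate 1 and triangles replicate 2, red for testis and blue for seminal vesicle, and open symbols mark 0 reads. The members at the top, led by Dr, Lim1 and Dll, are higher in seminal vesicle, and those at the bottom, from ap down to lbe, are higher in testis.

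The LIM-homeodomain genes split between the tissues. Lim1 (FBgn0026411; X, 8756539 to 8805804, minus strand of the Release 6 assembly), which acts in leg and antenna development in the fly and whose mouse relative Lhx1 is needed for the urogenital tract, stood at 3.26, 3.44, 297 and 339 CPM. Both seminal vesicle libraries lay far above both testis libraries (log2 fold change 6.57 ± 0.30, 94.8-fold, adjusted p = 3.12e-05). Lim3 (2L, 19079256 to 19108427, minus strand), which specifies motor neurons, went the other way, at 21.2, 18.3, 0.163 and 0.429 CPM. Its seminal vesicle values rest on 2 and 4 reads, and the log2 fold change of -6.10 ± 0.36 (adjusted p = 3.94e-05) was -5.48 without seminal vesicle replicate 1 and -6.85 without replicate 2. Each such fit leaves 1 library in a tissue and assumes that it varies as the others do.

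The wing selector gene ap was present in both tissues, at 25.3, 25.4, 10.4 and 9.86 CPM, and was 2.5-fold higher in testis (log2 fold change -1.32 ± 0.16, adjusted p = 0.000406). The Islet gene tup, which acts in motor neurons and heart, stood at 0.905, 0.875, 0.49 and 0.536 CPM and did not pass the test (log2 fold change -0.79 ± 0.42, adjusted p = 0.118). It was called with library size only (adjusted p = 0.0425) and with spike-in scaling (0.00451). Awh, which acts in imaginal cells, had 1 read in each tissue.

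The sine oculis genes are best known from the eye, where so works with the coactivator eya, and Six4 is needed in the somatic cells of the embryonic gonad. Optix (2R, 8031283 to 8042529, plus strand) was high in testis, at 67.8, 69.7, 2.94 and 8.47 CPM. Its seminal vesicle libraries did not overlap with those of testis but differed from each other, which is described with the other library differences below. The log2 fold change was -3.63 ± 0.45 (adjusted p = 0.000595), -3.01 without seminal vesicle replicate 1 and -4.55 without replicate 2. Six4 (3L, 20788886 to 20792777, minus strand) had 4.04, 4.03, 0.898 and 0.214 CPM, with 11 reads in seminal vesicle replicate 1 and 2 in replicate 2. It was higher in testis (log2 fold change -2.74 ± 0.49, adjusted p = 0.00254), and the change was -4.17 without seminal vesicle replicate 1. In contrast, so (2R, 7419350 to 7434872, plus strand) was 3.36-fold higher in seminal vesicle, at 8.32, 10.3, 31.9 and 30.5 CPM (log2 fold change 1.75 ± 0.18, adjusted p = 0.000218). With spike-in scaling, which lowers the median of all genes to -1.17, the change of so was 0.70 (adjusted p = 0.0476).

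Of the 7 NK-like and related genes tested, 4 were higher in seminal vesicle, beside 42.1% of all genes tested. Dll, which directs the growth of distal appendages, was nearly absent from testis, at 0.362, 0.35, 21.5 and 22.6 CPM (2R, 24814822 to 24835667, plus strand; log2 fold change 5.92 ± 0.25, adjusted p = 3.12e-05). Dr, the msh gene of dorsal neuroectoderm and muscle, had 1 and 4 reads in testis against 237 and 196 in seminal vesicle (3R, 29556386 to 29565244, plus strand). Its levels were 0.0603, 0.233, 19.3 and 21 CPM, and the log2 fold change of 7.0 ± 0.37 (adjusted p = 3.33e-05) was 8.25 without testis replicate 2. Both genes thus had seminal vesicle libraries that lay close together and far above testis.

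The head gap gene ems and its neighbour E5 were also higher in seminal vesicle, but with libraries that lay further apart. For ems the levels were 0.362, 0.35, 6.37 and 3.43 CPM (log2 fold change 3.77 ± 0.47, adjusted p = 0.000582). For E5 they were 0.422, 0.7, 8.9 and 4.72 CPM (log2 fold change 3.59 ± 0.47, adjusted p = 0.000712). In both genes seminal vesicle replicate 1 was the higher library, and neither overlapped with testis.

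The other tested NK-like genes had no reads in either seminal vesicle library. These were the ladybird gene lbe, which acts in heart and muscle, C15, which acts in the distal leg, and B-H2, a Bar gene of sense organs and leg. A count of 0 over both seminal vesicle libraries allows a level of up to 0.139 CPM (3 reads of the summed effective library sizes). The lbe gene had 44 and 64 testis reads (2.65 and 3.73 CPM), which makes it at least 23-fold higher there. C15 had 29 reads in each testis library (at least 12.4-fold higher) and B-H2 had 39 and 47 (at least 18.3-fold higher), and all 3 were called (largest adjusted p = 0.000956).

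Among the POU genes, nub, which acts in wing hinge and neuroblasts, was higher in seminal vesicle, at 2.53, 1.75, 9.39 and 9 CPM (log2 fold change 2.1 ± 0.26, adjusted p = 0.000492). The olfactory neuron gene acj6 (X, 15350239 to 15379064, minus strand) was higher in testis, at 21.5, 20.9, 0.816 and 1.07 CPM (log2 fold change -4.50 ± 0.24, adjusted p = 3.34e-05). The tracheal gene vvl stood at 0.844, 0.408, 1.31 and 1.82 CPM, and its call for seminal vesicle was weak (log2 fold change 1.29 ± 0.47, adjusted p = 0.0401). With the replicate number as a block the adjusted p of vvl was 0.0554. It was 0.0615 without testis replicate 1, where the log2 fold change was 1.96, 0.24 without testis replicate 2, 0.0886 without seminal vesicle replicate 2, and 0.128 in DESeq2. Scaling by library size alone gave vvl an adjusted p of 0.105, spike-in scaling 0.704 and no filter 0.061. The Cut gene ct, which sets the type of sense organ, was higher in testis, at 10.3, 12, 1.96 and 1.61 CPM (log2 fold change -2.62 ± 0.25, adjusted p = 0.000165).

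Of the Iroquois genes, which pattern eye, notum and egg follicle, mirr was 7.77-fold higher in seminal vesicle, at 1.63, 2.39, 16.5 and 14.9 CPM (3L, 12693639 to 12710249, plus strand; log2 fold change 2.96 ± 0.25, adjusted p = 0.00011). Its neighbour caup had 0.724, 0.525, 1.55 and 0.964 CPM and did not pass (log2 fold change 1.03 ± 0.43, adjusted p = 0.0636). The caup call was made without seminal vesicle replicate 2 (adjusted p = 0.0256). The third gene, ara, was too low to test, with no testis reads and 14 and 2 reads in seminal vesicle.

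Of the 8 paired-like genes tested, 6 were higher in testis and 2 in seminal vesicle, beside 44.5% and 42.1% of all genes tested. The head gene oc stood at 8.93 and 8.98 CPM in testis and had 1 read in each seminal vesicle library (X, 8630159 to 8650681, minus strand). The ratio of reads was 96.6 in favour of testis (95% counting interval 26.5 to 802, adjusted p = 4.5e-05). The pair-rule gene prd, which is also needed for the male accessory gland, stood at 3.74, 4.96, 0.245 and 0.321 CPM (log2 fold change -3.92 ± 0.43, adjusted p = 0.000288). The 7 accessory gland markers summed to 24.7 and 21.9 CPM in testis and to 46.9 and 21 CPM in seminal vesicle. Of these, 3 were called higher in seminal vesicle, among them SP, which was at 0 reads in testis. Acp95EF was called higher in testis, with 261 and 258 reads against 109 and 53. Acp36DE, with 142 and 113 testis reads, was not called.

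OdsH (X, 17791010 to 17814011, plus strand), a fast-evolving testis gene tied to hybrid male sterility between *Drosophila simulans* and *Drosophila mauritiana*, had 52 and 61 reads in testis and 0 and 1 in seminal vesicle. Its ratio of reads was 72.3 (counting interval 12.7 to 2882, adjusted p = 0.000344). The fitted log2 fold change of -5.92 moved to -4.85 without seminal vesicle replicate 1 and to -8.69 without replicate 2. Gsc, the goosecoid gene of the foregut, had 30 and 33 reads in testis and 1 in each seminal vesicle library (ratio of reads 20.2, counting interval 5.35 to 170.1, adjusted p = 0.000532).

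The gut genes otp and Ptx1 were the smallest of the paired-like differences in testis. For otp the levels were 2.41, 2.04, 0.245 and 0.643 CPM (log2 fold change -2.38 ± 0.48, adjusted p = 0.00384), and the change was -1.76 without seminal vesicle replicate 1 and -3.15 without replicate 2. For Ptx1 they were 1.75, 2.33, 0.49 and 0.643 CPM (log2 fold change -1.86 ± 0.40, adjusted p = 0.00534), and the call was lost without testis replicate 2 (adjusted p = 0.09). Antisense RNA genes share 9.53% of the exon bases of otp and 6.64% of those of prd. The counting strand is not stated, and of 129 genes lying inside exons of the opposite strand 84 had 10 or more reads, against 8 of 364 inside exons of the same strand.

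On the seminal vesicle side, Vsx1, a gene of the optic lobe, stood at 0.181, 0.117, 6.12 and 4.82 CPM (X, 5594255 to 5612865, plus strand; log2 fold change 5.13 ± 0.42, adjusted p = 9.89e-05). The glial gene repo had 1 and 0 reads in testis and 14 and 10 in seminal vesicle (ratio of reads 37.5, counting interval 6.11 to 1542, adjusted p = 0.0014). On the other strand CG7156 shares 6.11% of the exon bases of repo. The fitted log2 fold change of repo, 4.85, was 6.88 without testis replicate 1 and 4.08 without testis replicate 2. The glial markers did not move together, since nrv2 was higher in testis and moody higher in seminal vesicle. Among neuron markers, elav was higher in seminal vesicle, at 1.15, 1.05, 9.39 and 10.9 CPM (adjusted p = 9.09e-05), while brp was higher in testis, with 191 and 271 reads against 26 and 29. The part of nerve tissue in the repo result was not tested.

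All 5 tested genes grouped here as segmentation and Hox-derived were higher in testis, beside 44.5% of all genes tested. The grouping matters, since the pair-rule gene prd and the head gap gene ems were placed in other families. Of these, prd was higher in testis and ems in seminal vesicle. The most abundant was cad (2L, 20770731 to 20783135, plus strand), the Cdx gene of posterior body and gut, at 54, 54.1, 3.02 and 2.25 CPM (log2 fold change -4.34 ± 0.21, 20.2-fold, adjusted p = 3.18e-05). The pair-rule gene ftz (3R, 6864324 to 6866244, plus strand) had 37 and 56 reads in testis and 0 in seminal vesicle, so it was at least 19.8-fold higher in testis (adjusted p = 0.00095). The pair-rule gene eve had 12 and 15 reads against 2 and 1, a ratio of 5.76 (counting interval 1.77 to 29.7, adjusted p = 0.00786). An antisense RNA gene shares 16.7% of its exon bases, and its call was lost in DESeq2 (adjusted p = 0.0536), without testis replicate 1 (0.0594) and without testis replicate 2 (0.0938). The posterior compartment genes en and inv are described with their neighbours below.

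**Figure D2:**
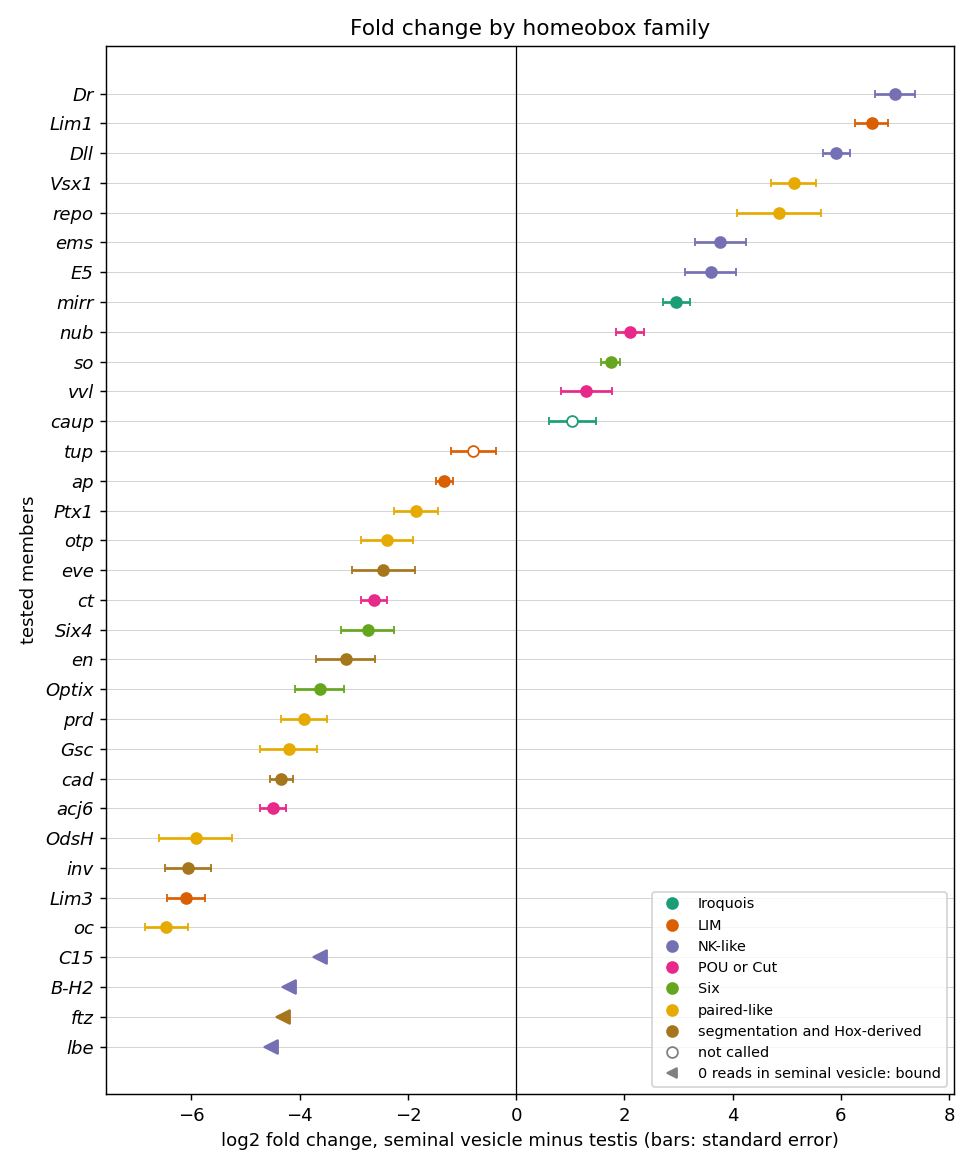
Log2 fold change of each tested member, seminal vesicle minus testis, with its standard error, coloured by family; open circles did not pass the test, and arrowheads are lower bounds for genes with 0 seminal vesicle reads. LIM, sine oculis, POU or Cut, paired-like and NK-like families have called members on both sides of 0. All 5 genes grouped as segmentation and Hox-derived, a group that leaves out prd and ems, lie to the left.

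Several members sit next to a close relative in the genome, and these neighbours are given side by side with no test of their likeness. In the engrailed pair, 14.3 kb apart on 2R, inv had 109 and 119 reads in testis and 1 in each seminal vesicle library (ratio of reads 73, counting interval 20 to 606, adjusted p = 6.2e-05). Its partner en had 28 and 44 reads in testis and 2 and 3 in seminal vesicle (log2 fold change -3.15 ± 0.54, adjusted p = 0.00195). Per kilobase of exon the testis level was 1.14 CPM for inv and 0.762 CPM for en. Both were thus higher in testis, at levels of the same order.

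The genes ems and E5, 26.9 kb apart on 3R, were both higher in seminal vesicle, with 1.98 CPM and 3.21 CPM per kilobase there. In the Iroquois complex mirr had 4.03 CPM per kilobase in seminal vesicle against 0.291 CPM for caup. In 3 gene pairs the relatives differed sharply in level. B-H2 was tested while B-H1, 73.3 kb away, had no read in any library. In the pair of nub and pdm2, nub was the expressed gene, and pdm2 had 2 reads in testis and 1 in seminal vesicle. OdsH had 113 testis reads, while unc-4, 12.3 kb away, had 2.

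The NK cluster of 3R, which runs over 178 kb from tin to slou, was seen in testis through 2 of its genes. Beside lbe and C15 it holds the heart gene tin with 3 and 2 testis reads, lbl with 3 and 6, the visceral muscle gene bap with no read in any library, and the muscle founder gene slou with 2 reads, both in seminal vesicle replicate 2. Genes of this cluster were thus at or near 0 in seminal vesicle. Of the 6 muscle markers 5 were called higher there, and sls was not. The part of muscle in the levels of these cluster genes was not tested. In the Antennapedia complex ftz was the gene with reads, and its neighbours zen and bcd had 5 and 6 reads, all in testis, with none for zen2.

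**Figure D3:**
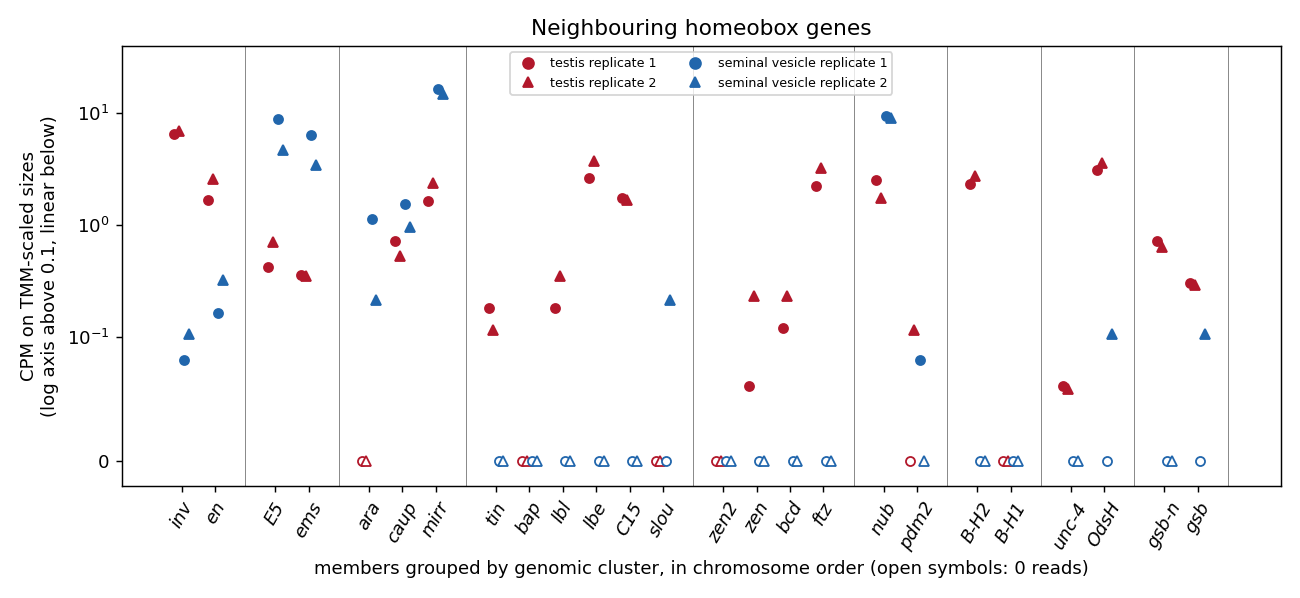
Level of neighbouring members in each library, in CPM, on an axis that is linear below 0.1 and logarithmic above; circles are replicate 1, triangles replicate 2, red testis, blue seminal vesicle, and open symbols mark 0 reads. Both genes of the inv and en pair are higher in testis, both of the E5 and ems pair are higher in seminal vesicle, and the NK cluster shows lbe and C15 in testis beside 4 genes with 9 or fewer reads.

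The remaining 24 members with a row did not pass the filter, and none had more than 23 reads over the 4 libraries. No read at all was found for 7 of them, bap, B-H1, H2.0, ind, vnd, bsh and zen2. Another 8 had reads in testis alone, the highest being gsb-n with 23 and the photoreceptor gene ro with 22. A further 3 had reads in seminal vesicle alone, which were ara with 16, the neuroblast gene unpg with 6 and slou with 2. The other 6, which had reads in both tissues, were Awh, al, gsb, pdm2, hbn and Pph13, with 2 to 11 reads. These genes were left out of the main test. With no filter 22 members were called higher in testis and 11 in seminal vesicle, although vvl lost its call there. Some of these low genes were thus called in that fit, on 23 or fewer reads each, and at this depth such a comparison is weak.

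Per kilobase of exon, Lim1 was the highest member in seminal vesicle at 80.1 ± 7.47 CPM (SD, n = 2), above 91.5% of the 11570 tested genes with a length. After it came so at 11.2 ± 0.348 CPM, Dr at 7.91 ± 0.46 CPM, Dll at 6.66 ± 0.245 CPM and mirr at 4.03 ± 0.289 CPM per kilobase, and the libraries of these 5 genes did not overlap with each other. E5, ap, Optix, ems and nub followed at 3.21 to 1.74 CPM per kilobase. The libraries of E5 were wide enough apart to overlap with those of mirr above it, and ap, Optix, ems and nub each overlapped with a neighbour in the order. In testis the order was led by Optix at 24.5 ± 0.485 CPM and cad at 21 ± 0.0432 CPM per kilobase, whose libraries did not overlap. Then came ap at 5.87 ± 0.0268 CPM, with acj6 at 4.78 ± 0.0936 CPM and Lim3 at 4.61 ± 0.481 CPM, where the values of acj6 lay within the range of Lim3. Optix stood above 73% and cad above 70.9% of tested genes in testis, while Lim1 stood above 16.6% there. Dr and Dll, at the middle of the range in seminal vesicle, stood above 2.21% and 3.7% of tested genes in testis.

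The 2 seminal vesicle libraries differed in what else they held, and some members differed with them. Summed over each list, germline markers (ratio of replicate 1 to replicate 2 0.499), neuron markers (0.717), hub markers (0.91) and glia markers (0.945) were lower in replicate 1. So was the Malpighian tubule marker Uro (0.389). Ejaculatory duct or bulb markers (ratio 2.09), accessory gland markers (2.23), hemocyte markers (1.56), trachea markers (1.42) and muscle markers (1.32) were higher in replicate 1. The hub sum was nearly all Fas3 (466 and 511 CPM), which was higher in seminal vesicle than in testis. The hub marker upd1 was higher in testis and stood at 0.735 and 2.89 CPM in the seminal vesicle libraries. Uro stood at 0.844, 0.642, 16 and 41.2 CPM. Of the 11 members called higher in seminal vesicle, 8 had a ratio whose 95% counting interval held 1. The others were Lim1 at 0.876 (0.835 to 0.919), ems at 1.86 (1.22 to 2.9) and E5 at 1.89 (1.32 to 2.74). The summed ejaculatory duct or bulb markers, Dup99B, Est-6 and EbpII, stood at 363 and 174 CPM in the seminal vesicle libraries and at 10.4 CPM in each testis library. Most of the seminal vesicle sum was Est-6, at 347 and 168 CPM. Dup99B stood at 15.5 and 3.11 CPM there, and EbpII went the other way, at 1.14 and 2.57 CPM. The intervals of ems and E5 also hold the ratios of the accessory gland, hemocyte, trachea and muscle lists. The part of any of these tissues in the ems and E5 result was not tested. Counting intervals and bounds cover counting error alone, because PCR copies of a molecule were not told apart.

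Of the members higher in testis, Optix had a ratio of 0.347 (0.227 to 0.521) between the seminal vesicle libraries, an interval that holds both the germline ratio and that of Uro. The germline ratio is that of a sum made up mostly of betaTub85D, dj and Mst87F. Of the 8 germline markers 6 were higher in replicate 2, while vas (1.96 and 0.643 CPM) and aly (2 and 0 reads) went the other way. As a percentage of the testis mean, the 20 members called higher in testis had a median level of 4.32% and 5.19% in the 2 seminal vesicle libraries, and the 8 germline markers 3.03% and 4.63%. Germline markers ranged from 0.193% to 13% in seminal vesicle replicate 1 and from 0% to 24.4% in replicate 2. Optix stood at 4.27% and 12.3%, cad at 5.59% and 4.16%, acj6 at 3.85% and 5.06% and Lim3 at 0.828% and 2.17%, all inside these ranges. Above the range in both libraries lay ap, at 40.9% and 38.9%, and Ptx1, at 24% and 31.5%. In replicate 2 alone otp lay above it, at 28.9%. In replicate 1 alone Six4 at 22.3%, eve at 20.4% and ct at 17.6% lay above it. The part of germline RNA or of Malpighian tubule RNA in the seminal vesicle levels of these members was not tested.

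**Figure D4:**
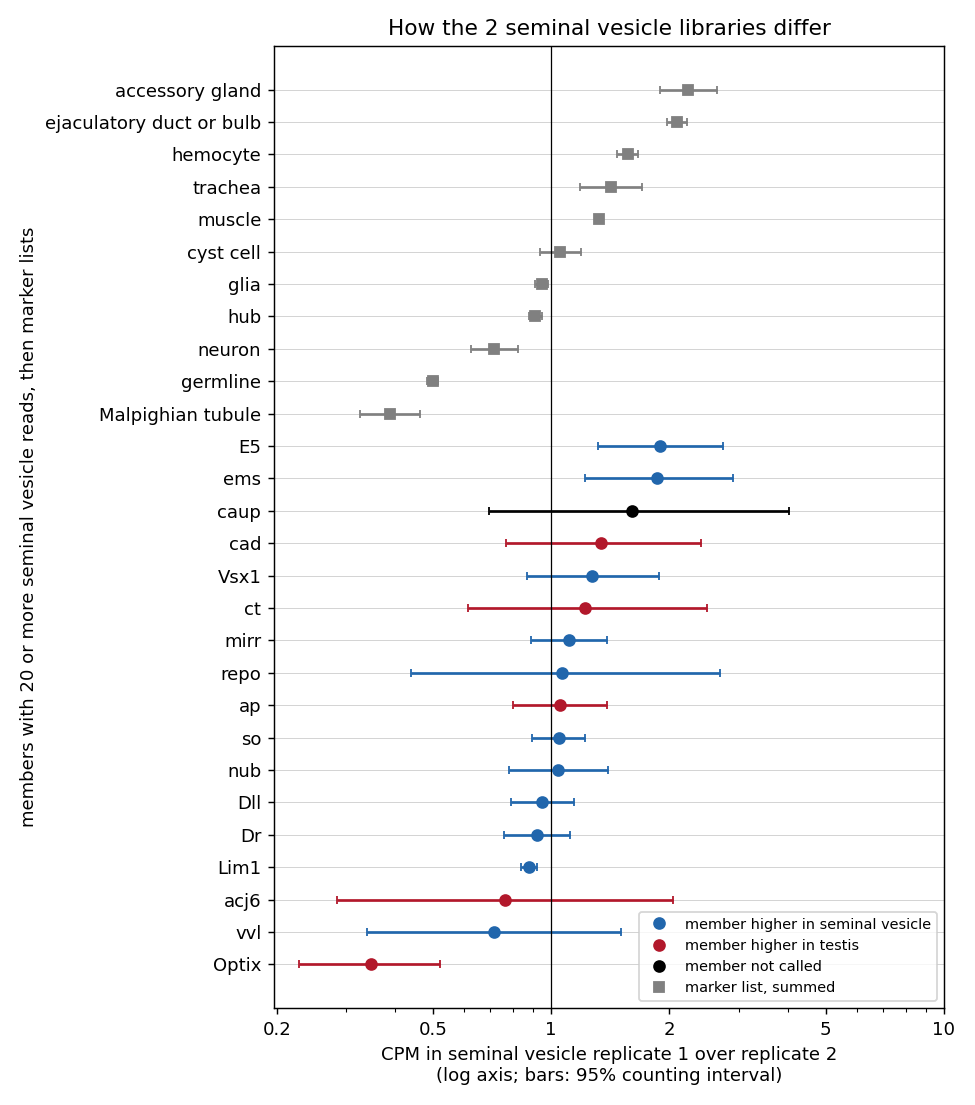
CPM in seminal vesicle replicate 1 over replicate 2 with 95% counting intervals, on a log axis, for members with 20 or more seminal vesicle reads (circles) and for summed marker lists (grey squares). E5 and ems lie above 1, as do the ejaculatory duct or bulb, accessory gland, hemocyte, trachea and muscle lists. Optix lies below 1, near the germline list and the Malpighian tubule marker, and so, nub, Dll and Dr lie near 1.

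Homeobox genes that are not members were read as context. Of 30 others that are neither Hox genes nor Hox cofactors, 11 were tested, 9 were higher in testis, and NK7.1 alone was higher in seminal vesicle, beside 44.5% and 42.1% of all genes. NK7.1 (3R), which shares 4.48% of its exon bases with spn-B on the other strand, stood at 21.3, 19.1, 141 and 173 CPM (log2 fold change 2.96 ± 0.24, adjusted p = 9.36e-05). In testis the highest by CPM, not corrected for length, were the TALE paralogs achi and vis, which act in the spermatocyte transcription program. They stood at 62.4, 54.6, 6.69 and 7.39 CPM for achi and 80.8, 65.9, 0.326 and 1.82 CPM for vis (log2 fold change -3.06 ± 0.19 and -6.19 ± 0.54, adjusted p = 4.5e-05 and 0.000144). The vis change was -5.31 without seminal vesicle replicate 1 and -7.78 without replicate 2. The homeobox gene CG11294 stood at 35.8, 35.8, 0.49 and 0.964 CPM (adjusted p = 3.18e-05). Per kilobase of exon the testis levels were 33.2 CPM for vis, 27.7 CPM for CG11294 and 22.8 CPM for achi.

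Of the 8 Hox genes and the TALE cofactors exd and hth, 8 were tested, 5 were higher in seminal vesicle and 2, lab and pb, in testis. The shares over all genes tested were 42.1% and 44.5%. Of the 5, Ubx lost its call with spike-in scaling (adjusted p = 0.0973). Antp (adjusted p = 0.0172), which shares 50.1% of its exon bases with CG46458 on the same strand, lost its call in 5 alternatives and turned in sign with spike-in scaling. Abd-B, the Hox gene of the last abdominal segments and genitalia, stood at 0.543, 0.408, 63.7 and 68.9 CPM (log2 fold change 7.1 ± 0.25, adjusted p = 3.12e-05). Its neighbour abd-A stood at 20.6, 21.6, 234 and 233 CPM (log2 fold change 3.47 ± 0.24, adjusted p = 5.87e-05). The TALE cofactors, which bind DNA beside Hox proteins, were unlike each other. The exd gene was 6.39-fold higher in seminal vesicle (18.5, 13.1, 94.8 and 107 CPM, adjusted p = 0.000151). The hth gene, whose protein carries exd into the nucleus, stayed low at 0.905, 0.875, 0.816 and 0.214 CPM (adjusted p = 0.299), and it was called higher in testis without seminal vesicle replicate 1 (log2 fold change -2.0, adjusted p = 0.0483) and with spike-in scaling (0.00631).

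Of the 10 cofactor genes, exd and hth included, 4 were higher in seminal vesicle, 1 was higher in testis and 5 did not pass the test. Of all genes tested, 42.1% were called for seminal vesicle and 44.5% for testis. Ssdp, a partner of the LIM-homeodomain complex, stood at 8.75, 6.94, 49.1 and 59.6 CPM (log2 fold change 2.79 ± 0.21, adjusted p = 7.97e-05). Chi, the adaptor that joins LIM-homeodomain proteins, stood at 40.5, 36.4, 35.2 and 35.6 CPM and the LIM-only inhibitor Bx at 12.3, 12.1, 12.9 and 14.4 CPM (adjusted p = 0.511 and 0.406). With spike-in scaling both were called higher in testis (adjusted p = 0.000764 for Chi and 0.0113 for Bx), and Chi also with library size only (0.0334). The corepressor CtBP and the kinase Hipk were higher in seminal vesicle by 3.46-fold and 3.71-fold (adjusted p = 0.000381 and 0.00182), and neither call was kept with spike-in scaling.

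The eye partners of the sine oculis proteins differed from each other as well. The coactivator eya, which is also needed in the cyst cells that wrap the germline, stood at 34.5, 34.2, 42 and 44.6 CPM (log2 fold change 0.33 ± 0.16, adjusted p = 0.0943). It was called higher in seminal vesicle without seminal vesicle replicate 1 (adjusted p = 0.0323) and with a filter of 5 CPM (0.0321), its sign turned with library size only, and with spike-in scaling it was called higher in testis (log2 fold change -0.73, adjusted p = 0.0394). The Ski-related gene dac was higher in testis, at 9.89, 11, 0.49 and 0.857 CPM (log2 fold change -3.98 ± 0.32, adjusted p = 9.52e-05). The other cyst cell markers tj, zfh1 and piwi were higher in testis. The list of 4 summed to 58.8 and 61.3 CPM in testis and to 53.4 and 50.7 CPM in seminal vesicle. Most of each sum was eya itself, so the sums do not show the fall of the other markers.

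**Figure D5:**
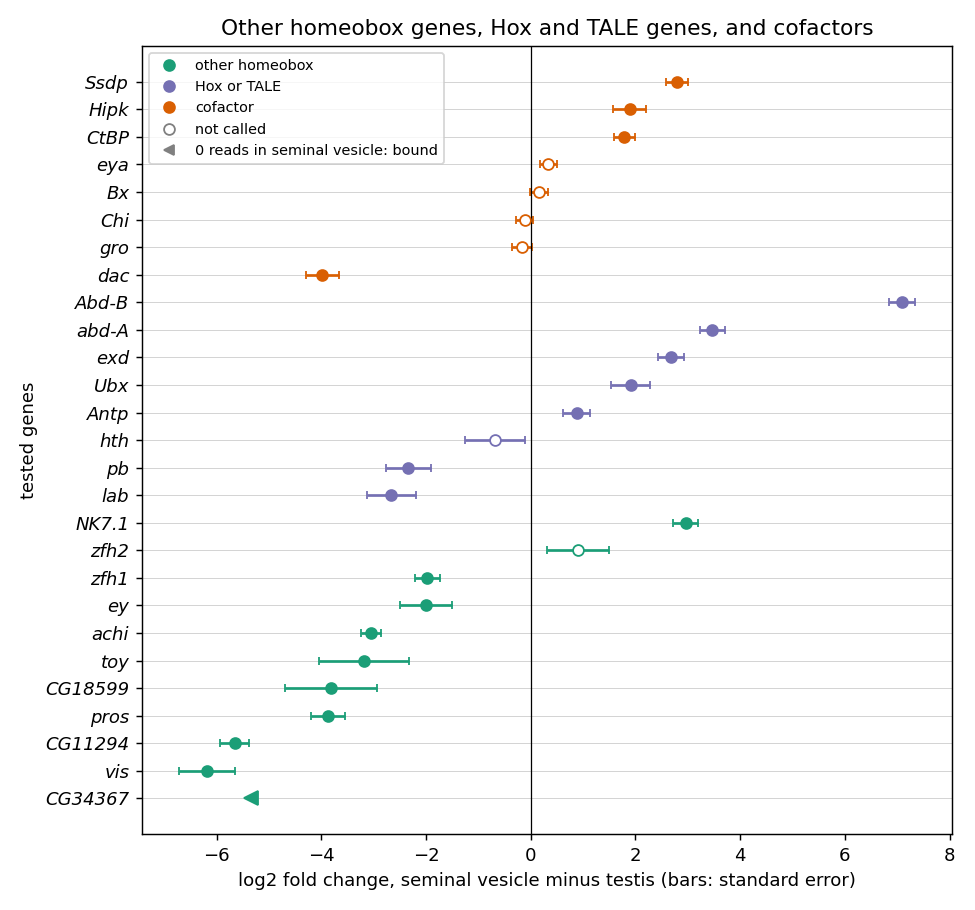
Log2 fold change, seminal vesicle minus testis, with its standard error, of the tested genes of 3 lists, namely other homeobox genes, Hox and TALE genes, and cofactors; open circles did not pass the test, and the arrowhead is a lower bound for a gene with 0 seminal vesicle reads. NK7.1 is the called gene to the right of 0 among other homeobox genes, while Abd-B, abd-A, exd, Ubx and Antp lie to the right among Hox and TALE genes, Antp turning to the left with spike-in scaling.

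The tested members were long genes, with a median span of 12.8 kb against 2.23 kb for all tested genes with a position, and a median exon length of 3.14 kb against 1.77 kb. The 20 higher in testis and the 11 higher in seminal vesicle had median spans of 12.6 and 15.5 kb. Calls in both directions fell on each of the 5 major chromosome arms. On the X 5 members were higher in testis and 2 in seminal vesicle, and on 3R 4 were higher in each. Shares over all genes of an arm were not taken, and 86.6% of all tested genes were called, so these counts are descriptions.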

How the data were processed

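The labels describe stranded poly(A) libraries with single-end reads of 50 bases mapped by the authors to FlyBase release 6.06, and the submitters' processing notes list, with no settings, HTSeq 0.6.1p1, TopHat2 2.1.0 and CASAVA 1.8.2. The authors deposited the raw count of reads per gene for each library, with 96 spike-in rows and 5 summary rows, which stayed out of library sizes and tests. Counting with unknown strand and overlap settings can shift reads between overlapping genes. Symbols, positions and exon lengths came from Ensembl release 115 annotation of the same Release 6 assembly, where 17172 gene IDs had a symbol.

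Counts of all genes were filtered with filterByExpr (minimum count 10, minimum total 15), given TMM factors and compared by edgeR 4.0.16 (R 4.3.3) with its quasi-likelihood F test in the robust form, seminal vesicle against testis, and with glmTreat against 2-fold. The steps were tested on simulated counts in which few genes changed. In these data most genes differ, so the scaling was not tested under such a change. Standard errors were taken as the absolute log2 fold change divided by √F. A gene with 0 reads in a tissue is given a bound against 3 reads over both libraries, and one with 1 to 3 reads an exact 95% binomial interval. Alternatives were DESeq2 1.42.0 and its size factors, limma voom 3.58.1, library size only, spike-in totals, other filters and thresholds, the replicate number as a block, and each library left out.

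The series text gives 2 dissection days as the replicates. Equal numbers are taken to mark the same day, which the labels do not state outright, and over genes the differences between replicates of the 2 tissues had a correlation of 0.0943. Blocked values stand where they change a call. P-values weigh the tissue difference against a spread estimated from 2 libraries per tissue and moderated over all genes.

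Members and lists were chosen with earlier results of these data known. All tested members are named with values. Of the other lists the rule names up to 3 called genes with the highest mean level per direction, with Abd-B, hth, exd, eya, achi and vis. Bx, Chi and the library ratios were added after values were seen.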

Additional observations from a re-analysis of the deposited data

How the results depend on the processing

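Over 12 refits, 28 of the 31 called members kept their call wherever they were tested, and vvl, eve and Ptx1 lost it at least once. With a filter of 5 CPM in 2 libraries, which tests fewer genes, 6 members were called higher in seminal vesicle and 8 in testis, 6 and 7 by over 2-fold, and 11 homeobox genes that are not members, Hox and TALE genes included, were called in place of 17. Under the remaining settings 10 or 11 members were called higher in seminal vesicle and 18 to 22 in testis. Leaving out each library in turn gave 10 to 11 and 18 to 22, with 9 to 10 and 14 to 21 by over 2-fold. It gave 14 to 19 of these non-members and 5 to 7 cofactors. Spike-in factors, whose pools differ between the tissues, moved the median log2 fold change of all genes from -0.11 to -1.17 and left 3272 genes higher in seminal vesicle, with 8 cofactors called in place of 5 (CtBP and Hipk lost; Chi, gro, Bx, eya and hth gained, all toward testis). Library size only moved that median to -0.49. The sign turned with spike-in factors for caup (-0.023), zfh2 (-0.15), Antp (-0.19), Bx (-0.91) and eya (-0.73). It also turned with library size only for Bx (-0.22) and eya (-0.047), and for Chi without testis replicate 1, its range over the libraries left out being -0.136 to 0.024. Of these genes Antp alone was called with TMM scaling, and its call was also lost in DESeq2, with library size only and without either testis library. The replicate block gave 10 members higher in seminal vesicle and 20 in testis, and of member calls only that of vvl changed. Members at 1 CPM numbered 23 to 24 in testis and 14 to 17 in seminal vesicle when 1 library was left out. Members with 23 or fewer reads in all were left out of the main test, and at this depth a comparison of them is weak.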
